A study of Mus with 17 samples.

Results

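The Cyp2 family of cytochromes P450 was taken as every gene in the count files whose symbol is Cyp2, a subfamily letter and a number, with pseudogenes marked -ps left out. There were 48 such genes in 13 subfamilies, out of 24937 genes with values, and 32 of them, in 9 subfamilies, had enough counts to be tested. Whole liver of 17 male mice of the strain C57BL6/JBomTac was sequenced, 1 library per mouse. In the western diet group, 8 mice ate western diet for 52 weeks and drank water holding fructose at 42 g/L, which the labels describe as a model of advanced steatohepatitis; 9 age-matched mice ate standard chow with plain water. All animals had been fasted overnight, the genotype label names the strain and no other allele, and groups were taken from the treatment label because the source name gives western diet for every sample.

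Cytochromes P450 are heme enzymes of the endoplasmic reticulum that insert oxygen into drugs, steroids, bile acids, vitamins and fatty acids, using electrons passed on by the reductase Por. The Cyp2 genes stand in clusters of close copies, and in liver many of them are switched by the nuclear receptors CAR (Nr1i3) and PXR (Nr1i2), by hepatocyte factors such as Hnf4a, and by the sex-dependent pattern of growth hormone release. Inflammation is known to lower many hepatic P450 transcripts. Several members differ between the sexes in mouse liver, among them Cyp2a4, Cyp2b9, Cyp2b13, Cyp2c40 and Cyp2c69, which are higher in females, and Cyp2d9, which is higher in males.

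The values are deposited counts per gene symbol, and library totals were 3604212 to 8818385.5 on western diet and 5231165.5 to 9071908.5 on chow. Levels are given as CPM, a gene's count relative to its library's total after TMM scaling between libraries. They are not per transcript length, so they are compared between diets for a gene and not between genes. A count of 0 allows a level of up to 0.331 to 0.832 CPM (3 counts), depending on the library and for counting error only. Hepatocyte transcripts were abundant in every library: the listed hepatocyte markers summed to 11427 to 19990 CPM on western diet and 14556 to 20529 CPM on chow. Western diet replicate 5 and chow replicate 2 carried pancreatic acinar transcripts, at 5872 and 18426 CPM in sum against 180 to 699 CPM in the other 15 libraries, and results on the family are given without them as well. In whole liver, fewer cells of a type and less RNA per cell cannot be told apart.

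Most Cyp2 transcripts were lower after western diet. Of the 32 tested genes 20 fell, 3 rose and 9 did not pass the threshold of 0.05 on the adjusted p (quasi-likelihood test of edgeR, adjusted by Benjamini-Hochberg over 13204 genes). Falls made up 62.5% of the tested members, where 23.6% of all tested genes fell, and rises 9.38%, where 24.8% of all tested genes rose. The median log2 difference, western diet minus chow, was −0.36 over the tested members and −0.0091 over all tested genes. Past the threshold and at least 2-fold lower were 5 members, 15.6% of those tested, against 1.14% of all genes, and 1 of the 5, Cyp2c69, passed the low count filter only through its chow libraries; 2 members were at least 2-fold higher, where 8.96% of all genes were. In 6 members every western diet library lay below every chow library (5.03% of all genes did so), and in 1 member, Cyp2a4, every one lay above (7.01% of all genes). When libraries were scaled by their size only, without TMM, the median of all genes moved to 0.12, 73.5% of all calls were rises in place of 51.2%, and 18 members fell and 4 rose. Without the pair of libraries with pancreatic transcripts 19 members fell and 3 rose.

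**Figure D1:**
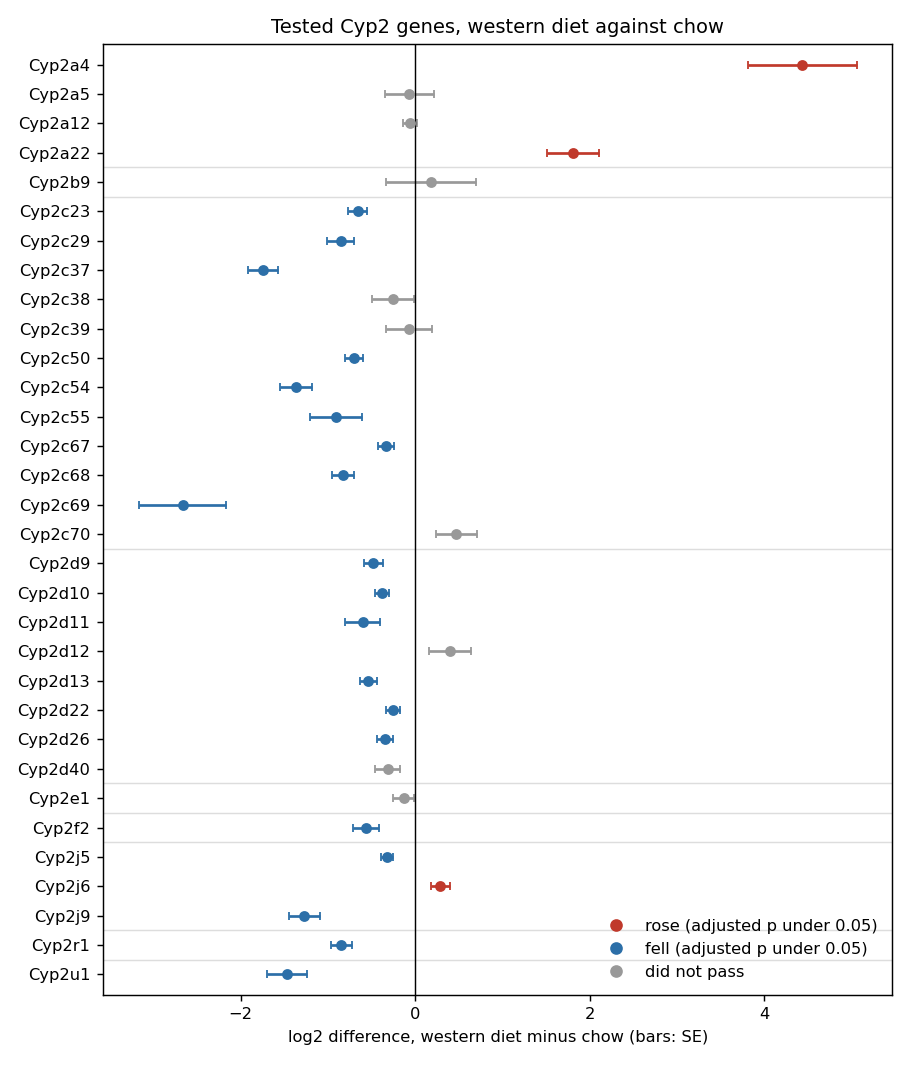
Log2 difference between western diet (n = 8) and chow (n = 9) for the 32 tested Cyp2 genes, ordered by subfamily with grey lines between subfamilies; points are fitted differences, bars are SE and colours give the call. Cyp2a4 stands furthest to the right at 4.44 and Cyp2c69 furthest to the left at −2.67, and most of the Cyp2c and Cyp2d genes lie left of 0.

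By subfamily, 9 of 12 tested Cyp2c genes fell and 3 did not pass. Of 8 tested Cyp2d genes 6 fell and 2 did not pass, and of 4 Cyp2a genes 2 rose and 2 did not pass. Since close copies can share reads, the counts of all members of a subfamily were also added up in each library, as a description with no test. The 15 Cyp2c genes together held 1535, 1814 and 2268 CPM (lowest, median and highest library) on western diet and 2507, 3059 and 3659 CPM on chow, so that the diets did not overlap and the mean on western diet was 0.599 of that on chow. For the 9 Cyp2d genes the sums were 1720, 2184 and 2770 CPM against 2511, 2899 and 3290 CPM, a ratio of means of 0.76, and western diet replicate 1 reached into the chow range. The 7 Cyp2j genes held 581, 692 and 787 CPM against 764, 819 and 926 CPM, a ratio of 0.835, and overlapped in a single western diet library. The 4 Cyp2a genes differed little in sum, at 773, 813 and 1700 CPM against 745, 907 and 1201 CPM (ratio 1.04). All 48 genes together took 0.763% to 1.06% of a western diet library's counts and 0.879% to 1.11% of a chow library's. In CPM the whole family summed to 7186 to 8071 in 7 western diet libraries and to 9099 to 11722 on chow; western diet replicate 1, the library with the lowest total, stood apart at 10860 CPM.

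**Figure D2:**
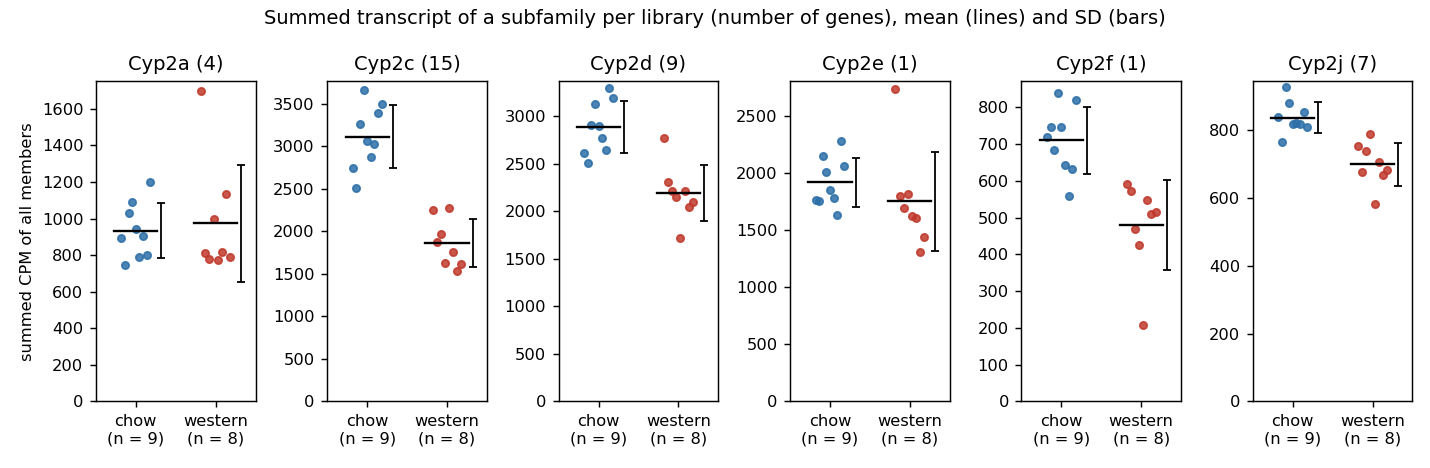
Summed CPM of all genes of a subfamily in each library (points), with the mean of the diet (line) and the SD (bar), on axes that start at 0; the number of genes stands in brackets. The western diet Cyp2c sums, 1535 to 2268 CPM, all lie below the chow sums, while the Cyp2a and Cyp2e sums overlap.

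Within subfamily Cyp2a a gene that was nearly silent on chow was present in every western diet library. Cyp2a4, a steroid hydroxylase of mouse liver (chromosome 7, 26307192 to 26315088 on GRCm38, the assembly also called mm10), was at 8.65, 22.5 and 161 CPM (lowest, median and highest of 8) on western diet and 1.63, 2.42 and 3.58 CPM (of 9) on chow. The diets did not overlap, but the western diet libraries differed widely among themselves: replicates 1, 4 and 7 held 81.4 to 161 CPM and the other 5 held 8.65 to 22.9 CPM. The fitted log2 difference was 4.44 ± 0.62 (SE), a 21.7-fold rise (adjusted p = 2.55e-05), and it was 4.004 to 4.61 when any single library was left out.

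Cyp2a5, its close copy on the same chromosome (26835339 to 26843264), which hydroxylates coumarin and nicotine, was far more heavily counted and did not pass. It held 190, 315 and 939 CPM on western diet against 259, 414 and 642 CPM on chow (log2 difference −0.066 ± 0.28, adjusted p = 0.867). The 3 western diet libraries with the most Cyp2a4 were also the 3 with the most Cyp2a5, at 479 to 939 CPM, where the other 5 held 190 to 340 CPM. Because these libraries stood apart, no correlation is given on western diet. On chow the log2 CPM of the pair moved together (Pearson r = 0.873, exact permutation p = 0.0028, adjusted p = 0.0112 over 4 relations; Spearman rho = 0.833, exact permutation p = 0.00827, adjusted p = 0.0331; n = 9). Without the 2 libraries farthest from the median of Cyp2a4 r was 0.64 (n = 7, exact permutation p = 0.118, adjusted p = 0.157), so the call, though not the sign, rests on them. On chow Cyp2a4 held only 9.5 to 22 counts in a library, and how far reads shared with Cyp2a5 enter this r was not tested.

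The share of Cyp2a4 in the summed counts of Cyp2a4 and Cyp2a5 was 0.478% to 0.702% on chow, a narrow range, and 3.64% to 16.7% on western diet. When the pair was added up before the fit, the sum differed by 0.11 ± 0.301 in log2 (adjusted p = 0.788) and did not pass. Cyp2a5 made up most of that sum in every library, so the sum mainly follows Cyp2a5 and cannot decide on the rise of Cyp2a4. How far reads of Cyp2a5 were counted as Cyp2a4 was not tested.

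The other Cyp2a genes behaved differently from each other. Cyp2a22, further along chromosome 7 (26931631 to 26939413), rose 3.5-fold, from 5.09, 10.9 and 19.7 CPM on chow to 10.5, 39.1 and 59.2 CPM on western diet (log2 difference 1.81 ± 0.29, adjusted p = 7.9e-05). Western diet replicate 4, with 10.5 CPM, was the only western diet library below the highest chow library. Cyp2a12, which hydroxylates secondary bile acids, held 366, 487 and 563 CPM against 432, 496 and 558 CPM, with a log2 difference of −0.057 ± 0.079 (adjusted p = 0.578).

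**Figure D3:**
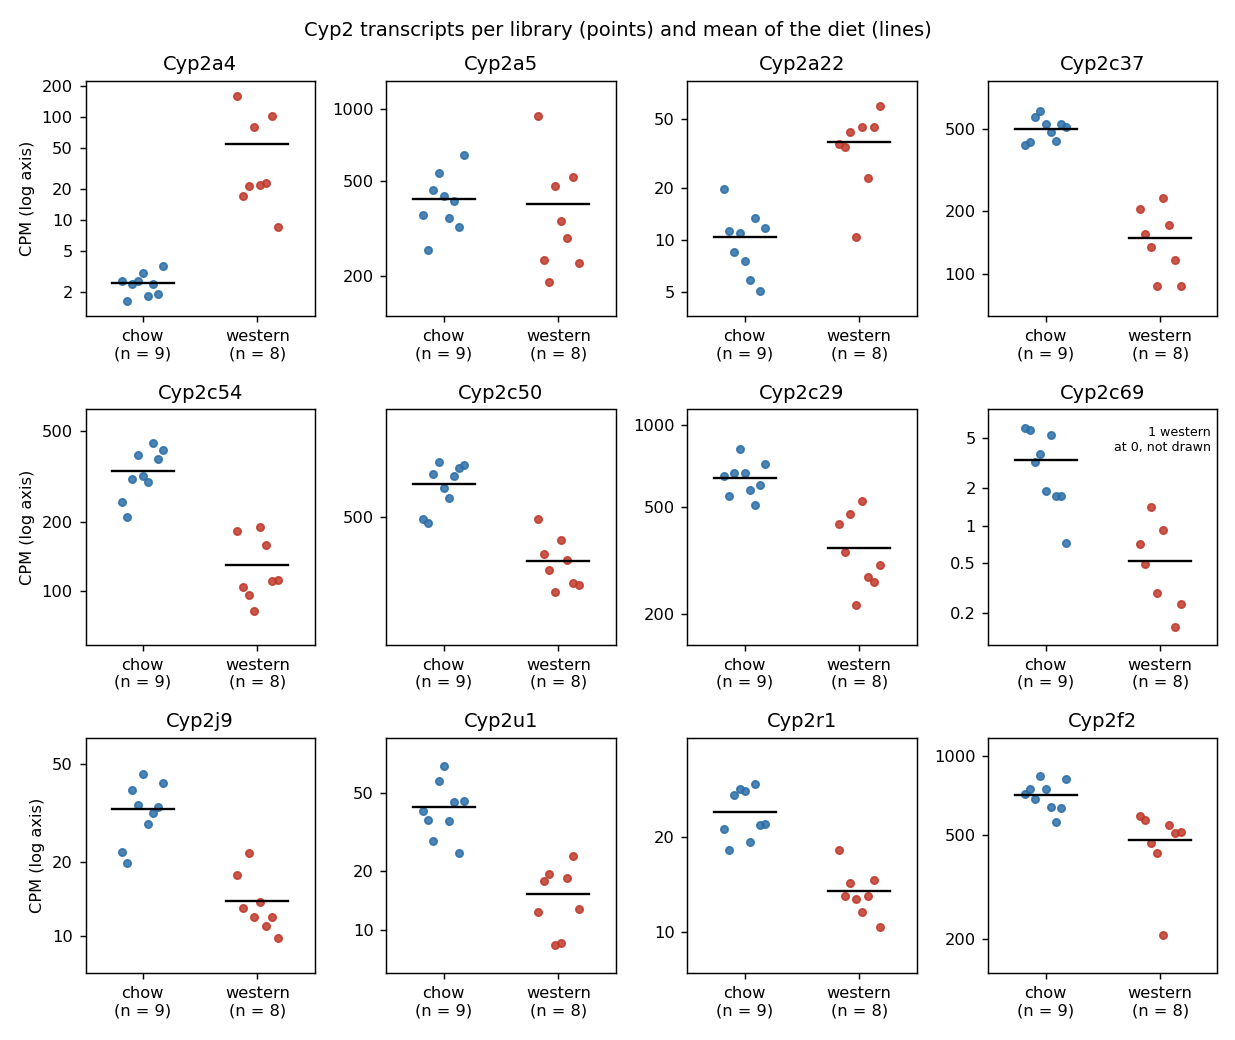
CPM of 12 Cyp2 genes in each library (points, log axis, scaled separately for each gene) with the mean of the diet (line) for chow (n = 9) and western diet (n = 8). Western diet points lie above all chow points for Cyp2a4 and below all of them for Cyp2c37, Cyp2c54, Cyp2u1 and Cyp2r1, while for Cyp2f2 replicate 5 lies alone at 207 CPM.

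Subfamily Cyp2b, the classic target of CAR, was low in these fasted male livers and only 1 of its 5 genes was tested. Cyp2b9 (chromosome 7, 26173350 to 26210661) held 5.48, 11 and 23.7 CPM on western diet and 0.393, 8.55 and 34.4 CPM on chow; chow libraries covered the whole western diet range, and the log2 difference was 0.18 ± 0.52 (adjusted p = 0.796). Cyp2b10, the copy most strongly induced by phenobarbital, had at most 4 counts in a western diet library and up to 103 on chow, the most in chow replicate 4. In the fit with no low count filter Cyp2b10 was lower by 4.19 ± 0.89 in log2 (adjusted p = 0.00145), although chow replicate 8 held none. Cyp2b13 had 4 to 38 counts against 0 to 6.5 and differed by 2.29 ± 0.47 in that fit (adjusted p = 5e-04), and summed with its close copy Cyp2b9 the pair differed by 0.35 ± 0.52 (adjusted p = 0.609). Keratinocyte gene Cyp2b19 and Cyp2b23 held at most 1 count in a library.

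Cyp2c genes, which in mouse liver make epoxides and hydroxy acids from arachidonic and linoleic acid and handle many drugs, had a median log2 difference of −0.77 over the 12 tested. The cluster lies on chromosome 19. Near its far end 3 neighbours, close copies of each other, fell together. Cyp2c37 (39992424 to 40012243) held 87.5, 145 and 232 CPM on western diet and 417, 507 and 605 CPM on chow, so the highest western diet library lay well below the lowest chow library. Its log2 difference was −1.75 ± 0.18 (adjusted p = 2.85e-07), 3.36-fold lower. Cyp2c54 (40037939 to 40073845) was 2.58-fold lower, with 81.5, 111 and 190 CPM against 211, 319 and 444 CPM and again no overlap (−1.37 ± 0.18, adjusted p = 9.34e-06). Cyp2c50 (40089679 to 40113955) was 1.63-fold lower and overlapped in western diet replicate 1 only (310.1, 369 and 495 against 481, 650.5 and 709 CPM; −0.71 ± 0.10, adjusted p = 1.42e-05). Summed before the fit, the 3 genes were 2.21-fold lower (adjusted p = 5.22e-07), at 479 to 885 CPM against 1124 to 1708 CPM.

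Directly beside them Cyp2c70 (40153361 to 40187286), the hydroxylase that makes the muricholic bile acids of mice, did not fall. It held 215, 296 and 465 CPM on western diet and 107, 222 and 435 CPM on chow (log2 difference 0.47 ± 0.23, adjusted p = 0.105). Chow replicate 8 was the highest chow library, and without it Cyp2c70 passed as a rise (0.66, adjusted p = 0.00941), as it did with library size alone (0.59, adjusted p = 0.0423).

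Other tested Cyp2c genes fell by less than 2-fold or did not pass, apart from Cyp2c69, which was low. Cyp2c29 (39287044 to 39330713), an epoxygenase and target of CAR, held 216, 322 and 525 CPM on western diet and 508, 650.2 and 814 CPM on chow, with only western diet replicate 5 above the lowest chow library (−0.85 ± 0.15, adjusted p = 1.53e-04). Cyp2c23 (44005022 to 44029256), also called Cyp2c44 and an epoxygenase of arachidonic acid that lies apart from the cluster, was at 193, 216 and 255 CPM against 263, 336 and 494 CPM with no overlap (−0.66 ± 0.11, adjusted p = 4.41e-05). Cyp2c68 and Cyp2c67, neighbours in the cluster, differed by −0.83 ± 0.13 and −0.34 ± 0.095 (adjusted p = 2.82e-05 and adjusted p = 0.0063). Cyp2c55 fell from a low level, 0.962, 2.21 and 3.4 against 1.02, 4.64 and 7.27 CPM (−0.91 ± 0.30, adjusted p = 0.0153). Cyp2c38 and the retinoic acid hydroxylase Cyp2c39 did not pass (−0.26 ± 0.24 and −0.068 ± 0.26, adjusted p = 0.403 and adjusted p = 0.851). Summed with their close copy Cyp2c29, the 3 genes were lower by 0.75 ± 0.14 (adjusted p = 1.87e-04).

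A pair of low Cyp2c genes, both higher in female than in male liver, was close to the floor of detection on western diet. Cyp2c69 (39842660 to 39886769) held 0, 0.393 and 1.39 CPM on western diet and 0.732, 3.18 and 5.99 CPM on chow, 6.35-fold lower (−2.67 ± 0.50, adjusted p = 2.3e-04). It passed the low count filter through its chow libraries, with at most 8 counts in a western diet library, and a gene that passes in this way had to differ. With a single library removed it was tested in only 12 of 17 fits, at −3.03 to −2.45. Cyp2c40, its neighbour (39767073 to 39812814), did not pass the filter: its counts were 1 to 4 in western diet libraries and 4 to 44.5 in chow libraries, and in the fit without the filter it was 8.91-fold lower (adjusted p = 1.93e-06). In both genes chow replicate 9 was the lowest chow library, at 0.732 and 0.651 CPM. Added to Cyp2c67 and Cyp2c68, with which they share close sequence, the 4 genes differed by −0.54 ± 0.098 (adjusted p = 1.63e-04).

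Cyp2d genes, on chromosome 15, fell by small steps. This subfamily holds the nearest mouse counterparts of human CYP2D6, which clears many drugs, and the male-predominant testosterone hydroxylase Cyp2d9. Cyp2d9 (82452377 to 82456827) held 505, 679 and 891 CPM on western diet against 756, 977 and 1241 CPM on chow, with western diet replicate 1 the only one inside the chow range (−0.48 ± 0.11, adjusted p = 9.16e-04). Of the other members Cyp2d26 (−0.35 ± 0.095), Cyp2d10 (−0.38 ± 0.084), Cyp2d22 (−0.26 ± 0.082), Cyp2d11 (−0.60 ± 0.202) and Cyp2d13 (−0.54 ± 0.096) fell at adjusted p-values from 1.36e-04 to 0.0187; Cyp2d13 is annotated as a transcribed pseudogene. With library size alone Cyp2d22 and Cyp2d11 did not pass (adjusted p = 0.215 and adjusted p = 0.069). Cyp2d40 was at 25.0, 51.2 and 66.1 CPM against 46.3, 62.8 and 66.8 CPM (−0.32 ± 0.14, adjusted p = 0.0756) and passed without western diet replicate 4 (−0.40, adjusted p = 0.026), with limma-voom (−0.37, adjusted p = 0.0455) and with 1 surrogate variable (−0.37, adjusted p = 0.0262), while Cyp2d12 was at 2.5, 4.4 and 9.78 CPM against 2.03, 3.66 and 4.73 CPM (0.40 ± 0.24, adjusted p = 0.179). Cyp2d9, Cyp2d10, Cyp2d11, Cyp2d12 and Cyp2d34 added up to a sum that was lower by 0.44 ± 0.098 in log2 (adjusted p = 0.00103).

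Cyp2e1 and Cyp2f2 stand for opposite zones of the liver lobule, Cyp2e1 around the central vein and Cyp2f2 around the portal tract. Cyp2e1, which oxidises ethanol and paracetamol (chromosome 7, 140763819 to 140774990), held 1307, 1655 and 2733 CPM on western diet and 1628, 1849 and 2278 CPM on chow and did not pass (−0.13 ± 0.12, adjusted p = 0.375). Western diet replicate 1 alone held 2733 CPM, and the other 7 held 1307 to 1811 CPM; without it Cyp2e1 passed as a fall (−0.25, adjusted p = 0.0219). Cyp2f2, which activates naphthalene (chromosome 7, 27119955 to 27133660), fell 1.48-fold, with 207, 511 and 590.4 CPM against 558, 720.3 and 839.9 CPM (−0.57 ± 0.15, adjusted p = 0.00391). Its lowest library was western diet replicate 5, which carries pancreatic transcripts; without that library the fall was −0.45 and still past the threshold. The difference between the changes of both genes was not tested, and within a diet their levels showed no relation past the threshold (r = 0.211 on western diet, n = 8, exact permutation p = 0.464; r = 0.29 on chow, n = 9, exact permutation p = 0.447). On chow, r depended on the 2 libraries farthest from the median of Cyp2e1: without them it was 0.883 (n = 7, exact permutation p = 0.0133, adjusted p = 0.0532).

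Zonal genes outside the family moved both ways, at shares not far from those over all tested genes (24.8% higher, 23.6% lower) for the pericentral list. Of 12 listed pericentral genes 4 rose, 3 fell and 5 did not pass (median −0.13), with the glutamine synthetase Glul up by 0.27 ± 0.105 in log2 and the aminotransferase Oat down by 0.55 ± 0.15; of 12 periportal genes 1 rose, 5 fell and 6 did not pass (median −0.24). Markers of airway club cells, the other cells rich in Cyp2f2, were at or near 0, summing to at most 0.093 CPM on western diet and 0.275 CPM on chow.

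Counts of the most heavily counted members followed the library total less than in proportion. Within a diet, the deposited count of Cyp2e1 grew by a log2 step of only 0.466 for each log2 step of the total, from 9086.5 to 14803.5 counts over libraries whose totals differed 2.52-fold. The slope was 0.688 for Cyp2d9 and 0.617 for Cyp2d26, 0.905 for Cyp2c23 and 1.54 for Cyp2u1. Over all tested genes the median slope was 0.599 for 71 genes above 1000 CPM, 0.815 for 220 genes at 500 to 1000 CPM and 1.17 for 7420 genes at 10 to 100 CPM. Western diet replicate 1 was the shallowest library. With the log2 library total as a covariate, chosen after seeing the data, 21 members fell and 3 rose, and Cyp2e1 was among those that fell (−0.21, adjusted p = 0.00227). In that fit Cyp2d9 was at −0.52 and Cyp2d26 at −0.40, against −0.48 and −0.35 without the covariate. Whether the flatter slopes compress the differences printed for these genes was not tested further.

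**Figure D4:**
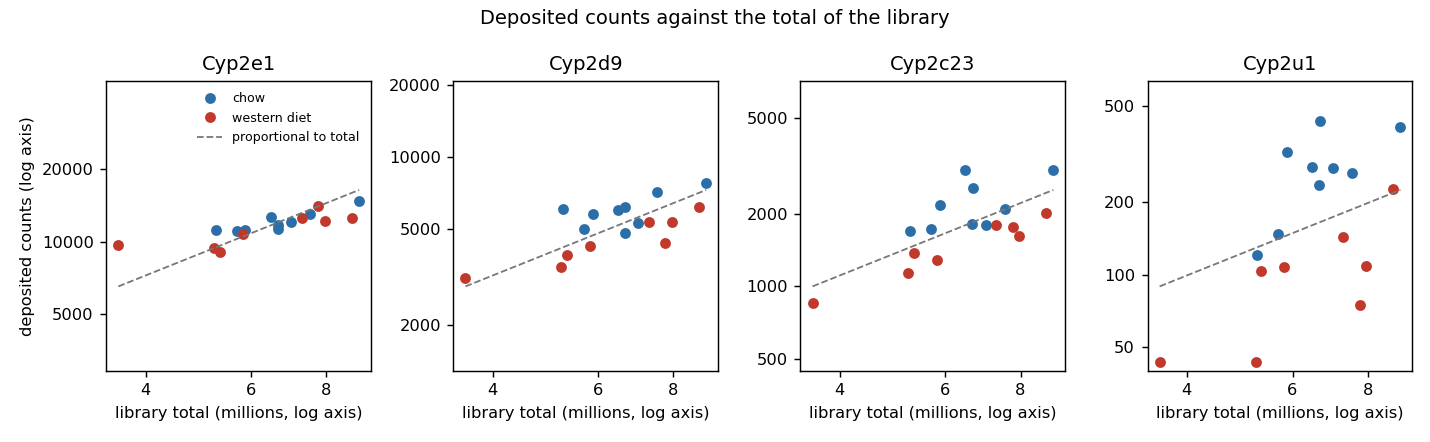
Deposited counts of 4 Cyp2 genes against the total of each library (points, both axes on a log scale; the y axes span the same fold); the dashed line marks counts in proportion to the total. Points of Cyp2e1 run flatter than the line, with western diet replicate 1 at the left above it, whereas those of Cyp2u1 separate by diet.

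Members that act on fatty acids outside the Cyp2c cluster moved both ways. Cyp2u1, a hydroxylase of long-chain fatty acids (chromosome 3, 131290491 to 131304157), was 2.78-fold lower, at 8.37, 15.3 and 23.8 CPM on western diet against 24.6, 40.6 and 68.7 CPM on chow, with no overlap (−1.47 ± 0.23, adjusted p = 4.53e-05). Cyp2j9 on chromosome 4 (96568424 to 96592523) was 2.41-fold lower, at 9.83, 12.5 and 21.7 CPM against 19.7, 33.3 and 45.6 CPM, with only western diet replicate 3 inside the chow range (−1.27 ± 0.18, adjusted p = 1.16e-05). Cyp2j5, an epoxygenase of arachidonic acid in liver and kidney (96627432 to 96664171), fell 1.25-fold without overlap, 469, 555 and 642 CPM against 649, 701 and 775 CPM (−0.32 ± 0.068, adjusted p = 6.76e-04). Cyp2j6 of the same cluster (96516138 to 96564305) rose by 0.29 ± 0.11 in log2 (92.9, 122 and 133 against 68.5, 95.7 and 126 CPM; adjusted p = 0.0355). The rise of Cyp2j6 did not hold in 8 of 17 fits with a library removed, those without western diet replicates 4, 6, 7 or 8 or without chow replicates 4, 5, 8 or 9 (adjusted p up to 0.0689), nor when low counts were not filtered (adjusted p = 0.0649).

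Cyp2r1, the hydroxylase that turns vitamin D into its circulating form (chromosome 7, 114550123 to 114563048), was 1.8-fold lower. It held 10.3, 13.0 and 18.1 CPM on western diet and 18.2, 22.0 and 29.5 CPM on chow, so that the diets met without overlapping (−0.85 ± 0.12, adjusted p = 9.65e-06). Of the 6 other vitamin D genes listed 3 were tested: the hydroxylase Cyp27a1 fell by 0.28 ± 0.089 and Dhcr7, which uses up the vitamin's precursor, by 0.62 ± 0.145, and the carrier protein Gc was at −0.086 ± 0.12 (adjusted p = 0.588).

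The 16 members that were not tested had few counts. In 11 of them no library held more than 10 counts. Cyp2w1 had no count in any library, and Cyp2b19, Cyp2b23, Cyp2c65, Cyp2c66, Cyp2j11, Cyp2j12 and Cyp2j13 had at most 2. The others of the 11 were Cyp2d34, Cyp2j8 and Cyp2t4, with at most 9, 8 and 5 counts. Above 10 counts in some library were Cyp2b10, Cyp2b13 and Cyp2c40, described above, the olfactory gene Cyp2g1 (0 to 20 counts) and Cyp2s1 (1 to 31.5 counts, the most in chow replicate 2, which carries pancreatic transcripts). In the fit without the filter Cyp2g1 and Cyp2s1 did not pass (adjusted p = 0.441 and adjusted p = 0.78), and Cyp2j13 did, as a rise resting on at most 2 counts in a library (adjusted p = 0.0284).

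Partners of the P450 enzymes moved in both directions, and as background 48.4% of all tested genes were called. The list of companion genes was put together from general knowledge of the family. Por, the reductase that passes electrons to all Cyp2 enzymes, fell by 0.68 ± 0.071 in log2 (adjusted p = 2.85e-07), with no overlap between diets (medians 372 and 596 CPM). Cytochrome b5 of the outer mitochondrial membrane, Cyb5b, fell by 0.50 ± 0.093, whereas the microsomal form Cyb5a was at −0.049 ± 0.11 (adjusted p = 0.739) and Cyb5r1 rose by 0.43 ± 0.098. The list of 7 genes held electron donors and also the P450-binding proteins Pgrmc1 and Pgrmc2. Of these 7 genes 3 fell (Por, Cyb5b and Pgrmc2), 1 rose and 3 did not pass. Of 12 genes of heme synthesis and breakdown 5 fell and 4 rose. Among those that fell were the synthesis enzymes Alas1, the regulated first step (−0.48 ± 0.17), Alad (−0.21 ± 0.076), Cpox (−0.57 ± 0.082) and Fech (−0.22 ± 0.07). Those that rose were Uros, also of synthesis (0.51 ± 0.099), and the breakdown enzymes Hmox1 (0.78 ± 0.16), Hmox2 (0.20 ± 0.044) and Blvra (0.49 ± 0.068).

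Transcription factors known to act on Cyp2 genes fell more often than they rose. Of 21 listed 12 fell, 2 rose and 7 did not pass, with a median of −0.29. Over all tested genes 23.6% fell and 24.8% rose. Nr1i3, which encodes CAR, fell by 1.01 ± 0.11 (medians 149.8 and 294 CPM, no overlap, adjusted p = 5.67e-07), and Nr1i2, which encodes PXR, by 0.22 ± 0.062. Hnf4a, Rxra, the dimer partner of both receptors, and Ppara, a receptor for fatty acids, fell by 0.39 ± 0.076, 0.36 ± 0.063 and 0.58 ± 0.115, and Cebpb and Nfe2l2 were the only members to rise (0.44 ± 0.17 and 0.39 ± 0.089). Of 15 tested targets of CAR and PXR outside the family 5 fell, 3 rose and 7 did not pass (median −0.15), near the shares over all tested genes given above. Cyp3a11 fell by 0.54 ± 0.16 and the carboxylesterase Ces2a by 1.46 ± 0.14, while the glutathione transferases Gstm2 and Gstm3 and the exporter Abcc4 rose. The clock-driven factors Tef and Hlf, which bind promoters of some Cyp2 genes, fell by 0.76 ± 0.26 and 0.63 ± 0.11. Dbp, the third of this kind, spanned 10.7 to 88.8 CPM on western diet and 8.25 to 203 CPM on chow (−0.61 ± 0.603, adjusted p = 0.427), and with Dbp as a covariate 20 members fell and 3 rose.

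Genes that mark male liver outside the family fell in most cases, and few of the female ones had enough counts to be tested. Of 18 tested male-predominant genes 15 fell and 3 did not pass (median −1.14), where 23.6% of all tested genes fell and 24.8% rose. Among those that fell were the urinary protein gene Mup3 (−0.53 ± 0.135) and the lipid elongase Elovl3 (−1.44 ± 0.34), while Mup20 was at 0.22 ± 0.12 (adjusted p = 0.139). Only 4 of 15 female-predominant genes were tested, of which Fmo2 and Atp6v0d2 rose, the prolactin receptor Prlr fell and Cyp17a1 did not pass (0.99 ± 0.65, adjusted p = 0.228). Of 10 tested genes of growth hormone signalling Stat5a rose, Trim24 and Prlr fell and 7 did not pass, Stat5b among them (−0.0045 ± 0.07, adjusted p = 0.965). Neither the share of rises nor that of falls in this list exceeded the share over all tested genes.

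Enzymes that take up the products of Cyp2 epoxygenases, and the Cyp4 hydroxylases that share their fatty acid substrates, were mostly lower. Of 15 tested 10 fell, 2 rose and 3 did not pass (median −0.50). For this list and the next ones, 23.6% of all tested genes fell and 24.8% rose as background. The soluble epoxide hydrolase Ephx2 fell by 0.56 ± 0.09 and the microsomal form Ephx1 by 0.43 ± 0.12, Cyp4a14 and Cyp4a10, targets of Ppara, by 1.44 ± 0.18 and 0.89 ± 0.11, and Cyp4f16 and Cyp4f18 rose by 1.7 ± 0.22 and 1.9 ± 0.33. In bile acid synthesis, the pathway of Cyp2c70 and Cyp2a12, 5 of 11 genes fell and 6 did not pass; Cyp8b1 fell by 0.97 ± 0.14, and Cyp7a1 was at −0.0996 ± 0.51 (adjusted p = 0.889). Acute phase and cytokine genes went the other way: 9 of 14 tested rose and 5 did not pass (median 1.18), with Saa1 up by 2.08 ± 0.47 and Il1b by 1.39 ± 0.32, while Crp was at 0.033 ± 0.091 (adjusted p = 0.794).

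**Figure D5:**
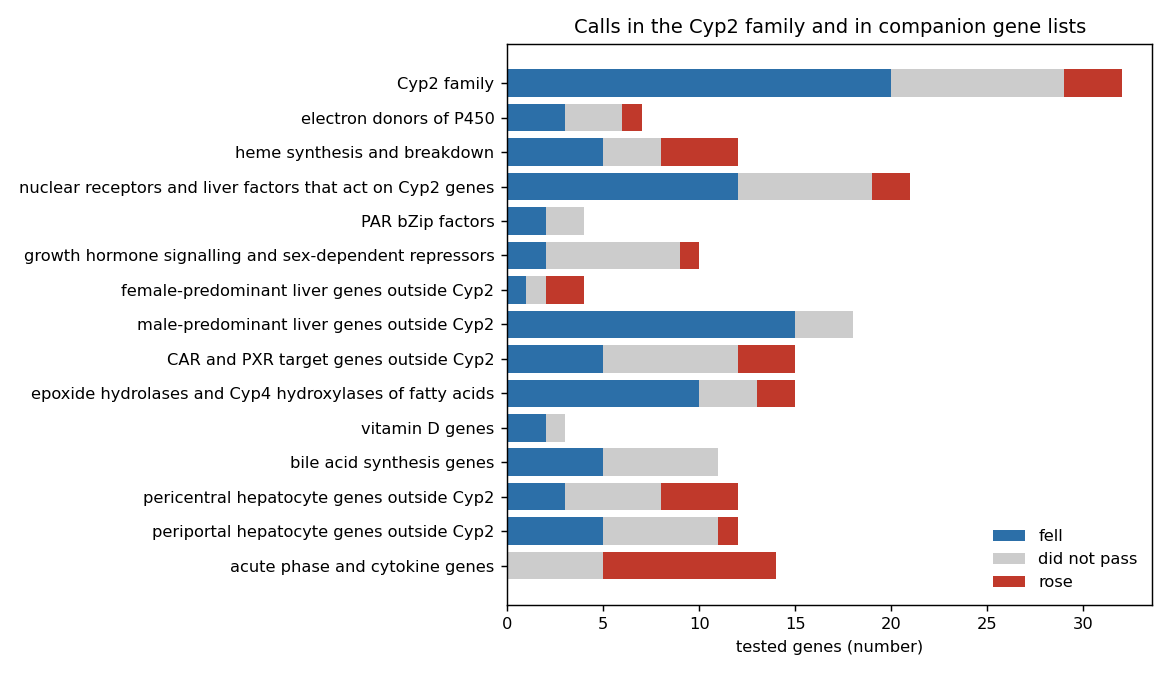
Number of tested genes that fell, did not pass and rose in the Cyp2 family and in 14 companion lists. The Cyp2 family, with 20 falls and 3 rises, is shown above the lists. The male-predominant genes have 15 falls, and the acute phase genes 9 rises. Over all tested genes 23.6% fell and 24.8% rose.

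Markers of some other liver cells moved with the diet beside these results. Of 9 tested hepatocyte markers 3 fell (Alb, Serpina1c and Hnf4a) and 6 did not pass (median −0.16). All 6 bile duct markers rose, with a summed level of 196 to 516 CPM on western diet and 72.7 to 134 CPM on chow. Most of that sum was Spp1 (159 to 432 CPM against 49.8 to 89.2 CPM), the only marker of this list without overlap between diets. Of 7 stellate cell markers 5 rose (636 to 939 CPM against 498 to 630 CPM in sum), and of 7 Kupffer cell markers 4 rose and 2 fell (598 to 1116 against 369 to 668 CPM). The 2 that fell, Cd163 (−4.32 ± 0.21, adjusted p = 5.55e-11) and Marco (−2.94 ± 0.71, adjusted p = 0.00297), changed more than the 4 that rose. Of 6 sinusoidal endothelium markers 2 rose, 2 fell and 2 did not pass, with overlapping sums (329 to 618 against 443 to 570 CPM). Over all tested genes 24.8% rose and 23.6% fell. The part of the cell makeup in the differences of the Cyp2 genes was not tested.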

How the data were processed

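RNA-seq of 17 whole livers was used as deposited: expected counts per gene symbol in steps of 0.5, unscaled, 1 file per library. The authors used the assembly mm10 and the tools STAR 2.4.1c, HOMER, MultiQC and FastQC, per the submitters' processing notes. Options, strand, annotation, duplicates and multiply matching reads: not given in the sources used here, so close copies, overlapping genes and antisense genes can share reads. Of 24940 rows 3 had no value. Counts were rounded, filtered with filterByExpr (13204 genes) and tested with edgeR 4.0.16 (R 4.3.3): TMM, robust dispersions, glmQLFTest on diet alone, two-sided, Benjamini-Hochberg at 0.05, prior count 0.125. The biological coefficient of variation was 19.0%. CPM use TMM-scaled library sizes. SEs were derived from each gene's log2 coefficient and F statistic. The steps were tested on simulated counts. Alternatives used limma 3.58.1, DESeq2 1.42.0 and sva 3.50.0; relations and plots used Python 3.11.15, scipy 1.17.1 and matplotlib 3.10.9.

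Genes were matched by symbol to RefSeq GRCm38.p6; all 48 members matched, and their sequences were not used here. Of 10 relations fixed over 5 pairs, pairs with an untested member were left out, and 2 on western diet were left out because a gap of over 0.4 of the range split the libraries; 4 were tested with all orders of the libraries. The named genes are all members and some genes of each companion list. The plan was to name up to 4 members of a list with the highest average level and those that moved alone. It was not kept in every list. No values are printed for Pgrmc1, Hp, Serpina1e, Igf1, Slc27a5, Alb and Prlr, each the highest on average among the tested genes of a companion list. The choice of other named genes followed a look at their values. The members and lists were chosen with earlier results of these data known. Each library was taken as 1 mouse; p-values measure the spread between these samples.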

Additional observations from a re-analysis of the deposited data

Results flagged for a closer look

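In 3 tested members a library stood far from the rest of its diet, judged by the gap to its nearest neighbour over the group's range on a log2 scale. Over 64 groups tested, about 1 in 20 would be flagged by chance. Western diet replicate 1, the shallowest library, held 2733 CPM of Cyp2e1 where the remaining 7 held 1307 to 1811 CPM. Western diet replicate 5, which carries pancreatic transcripts, held 207 CPM of Cyp2f2 against 426 to 590.4 CPM. Chow replicate 3 held 2.03 CPM of Cyp2d12 where the remaining 8 held 3.09 to 4.73 CPM.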

How the results depend on the processing

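No paired analysis was possible because no label ties a mouse on western diet to one on chow. Across the planned settings 17 to 23 members fell and 2 to 4 rose, except in the test against a 1.5-fold change, where 6 fell and 2 rose. Leaving out single libraries gave 19 to 22 falls and 2 or 3 rises, with Cyp2c69 tested in only 12 of the 17 fits. DESeq2 gave 22 and 4, limma-voom 21 and 3. Of the 4 relations, 1 passed, and 0 without the 2 libraries farthest from the median, although r then rose from 0.29 to 0.883 for Cyp2e1 and Cyp2f2 on chow and from −0.14 to 0.65 for Cyp2b9 and Cyp2a4. Signs changed only in members that did not pass, namely Cyp2a5, Cyp2a12, Cyp2b9 and Cyp2c39. Cyp2a5 was at 0.048 with library size alone and at −0.37 to 0.038 without single libraries. Cyp2a12 was at 0.065 with library size alone, and Cyp2b9 at −0.036 without the libraries with pancreatic transcripts. Cyp2c39 was at 0.063 with library size alone, 0.0014 with limma-voom and −0.20 to 0.065 without single libraries. Sums of close copies are not estimates of a single member, since they follow the most heavily counted copies. The sum of Cyp2a4 and Cyp2a5 was at 0.11. That of the 5 Cyp2d copies was at −0.44, and Cyp2d12 held at most 9.78 CPM of it in a library. Sums of copies by protein identity were not run, since no protein table was used; groups of copies from general knowledge, and the library total as covariate, were chosen after seeing the data. Depth limits the 16 untested members.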
